A study of Mus musculus with 14 samples.

Results

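Solute carriers are the large group of membrane proteins that move sugars, amino acids, vitamins, metals, nucleotide sugars and other small molecules across cell and organelle membranes. Their expression was compared between tumours of mice deficient in HIF-2α and tumours of control mice. The genes described are those whose platform symbol begins with Slc and a digit, without Slc2a1, Slc11a2, Slc12a2, Slc16a1, Slc16a3 and Slc40a1. A gene had to have a probeset above 4 on the log2 scale in at least 7 of the 14 arrays, and the probeset with the highest mean over all arrays stood for it. Of 256 such genes on the array, 139 met this rule and are called members here. The level chose the members, so that they were expressed is not a result. Of the others, 99 had no array above 4 in any probeset. Just inside the limit lay the cationic amino acid transporter Slc7a3, above 4 in 4 deficient and 3 control arrays, with a difference, deficient minus control, of -0.40 (SE 0.71) over all arrays and 0.05 (SE 0.75) without deficient arrays 3 and 6. Just outside lay the anion exchanger Slc26a6, above 4 in 2 deficient and 4 control arrays.

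Total RNA from tumours of 7 Hif2alpha deficient and 7 control mice, 1 array per mouse as the labels count them, was hybridised to Affymetrix mouse arrays. The deposited levels are log2 values made with GCRMA. All mice had a mixed 129 SvJ/C57Bl6 background. The labels call the HIF-2α group both deficient and a knockdown, and give neither the age, the organ, the tumour-initiating allele, the cells in which the gene was lost nor its deleted part. The study is known for work on lung tumours. Epas1, which encodes HIF-2α, had a mean of 5.65 ± 0.51 in deficient and 5.84 ± 0.69 in control tumours (SD, n = 7 each). That difference of -0.19 (SE 0.30, limma adjusted p = 0.807) checks the labels only if the probeset lies in the deleted part, which is not known here.

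When oxygen is scarce, HIF-2α binds DNA together with ARNT, and genes that carry a short hypoxia response element are switched on. Cells short of oxygen are known to take up more glucose, export more acid and alter the uptake of amino acids and iron, so carriers are among the textbook outputs of the hypoxia response. In the lung, carriers also serve the alveolar lining: type II cells recover phosphate and peptides from the fluid, and airway cells adjust its salt and bicarbonate. Some carriers are gatekeepers of single organelles, such as the mitochondrial carriers of the Slc25 family and the nucleotide sugar transporters of the Golgi in the Slc35 family.

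The promoters of 5 members are shown. They are the 2 members with the smallest p in each direction, and Slc25a47, which lies beside one of these. Each run is the 250 bases before the RefSeq transcript start, read on the gene's strand, in assembly GRCm38.p6. The intervals are chr11:3914665-3914914 (minus strand) for Slc35e4, chr12:108835877-108836126 (minus) for Slc25a29, chr12:108850879-108851128 (plus) for Slc25a47, chr2:122702664-122702913 (minus) for Slc30a4 and chr1:75133891-75134140 (minus) for Slc23a3. Capitals mark the core letters of the hypoxia response element, ACGTG or GCGTG, on either strand.
Slc35e4: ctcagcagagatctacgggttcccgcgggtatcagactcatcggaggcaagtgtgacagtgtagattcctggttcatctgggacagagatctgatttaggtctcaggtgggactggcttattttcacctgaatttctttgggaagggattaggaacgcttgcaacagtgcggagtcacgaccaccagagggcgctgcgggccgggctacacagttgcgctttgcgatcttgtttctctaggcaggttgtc
Slc25a29: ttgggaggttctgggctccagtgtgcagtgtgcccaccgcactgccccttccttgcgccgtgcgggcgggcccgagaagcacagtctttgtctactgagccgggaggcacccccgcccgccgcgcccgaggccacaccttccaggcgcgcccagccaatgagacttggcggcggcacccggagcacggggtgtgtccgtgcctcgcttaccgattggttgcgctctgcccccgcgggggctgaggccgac
Slc25a47: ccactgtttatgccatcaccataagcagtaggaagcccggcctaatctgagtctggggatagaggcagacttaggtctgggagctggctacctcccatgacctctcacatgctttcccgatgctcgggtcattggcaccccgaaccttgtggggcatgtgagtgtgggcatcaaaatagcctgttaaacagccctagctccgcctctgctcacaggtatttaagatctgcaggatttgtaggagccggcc
Slc30a4: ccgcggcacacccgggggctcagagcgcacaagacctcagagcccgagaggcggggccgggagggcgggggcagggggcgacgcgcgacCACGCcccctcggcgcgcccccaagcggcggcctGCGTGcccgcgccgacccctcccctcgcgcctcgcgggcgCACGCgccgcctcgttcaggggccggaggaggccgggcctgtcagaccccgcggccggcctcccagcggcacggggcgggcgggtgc
Slc23a3: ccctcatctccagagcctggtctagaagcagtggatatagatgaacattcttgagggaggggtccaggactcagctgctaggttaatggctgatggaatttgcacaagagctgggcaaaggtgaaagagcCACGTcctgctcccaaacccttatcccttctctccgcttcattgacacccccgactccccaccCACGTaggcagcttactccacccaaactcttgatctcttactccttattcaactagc
The Slc30a4 window held 3 cores, 161, 127 and 87 bases before the start, and the Slc23a3 window held 2, at 120 and 57 bases. The windows of Slc35e4, Slc25a29 and Slc25a47 held 0, which says only that these letters are not in these bases. Other windows, not shown, were mixed in both directions. Among lower members Slc15a4 held 1 core, Slc25a28 2 and Slc5a1 3, while Slc46a3, Slc39a9 and Slc4a5 held 0. Among higher members Slc35a1 held 0, Slc30a7 1 and Slc25a13 3. Whether cores go with the direction of a difference was not tested. At least 1 core was found in a window of 59.3% of the 108 members with a window in the RefSeq table, against 63% of all tested genes with one and 41.5% of all genes in the table. The other 31 members had none there. Slc25a29 and Slc25a47 lie next to each other on chromosome 12 and are transcribed away from each other, with Mir345 and no protein-coding gene between them.

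Deficient arrays 3 and 6 were left out together in an alternative fit. They share the leading digits of the number in their descriptions, as do deficient 1 and 5, and deficient 4 and 7. No source used here says what these numbers are. The labels give no ground for leaving out deficient 3 and 6 rather than the other pairs, which were not left out together. The fit without deficient 3 and 6 is therefore not preferred to that of all arrays. Deficient 3 and 6 both lay below the other 12 arrays for 7 members (5.04%) and above them for 10 (7.19%), against 5.44% and 4.09% of the 12701 tested probesets. Control 6 was the highest or lowest array of its group for 63 members and deficient 7 for 62. Deficient 3 was so for 58 members and deficient 6 for 36. Where leaving out deficient 3 and 6 moved the difference of a named member by over 1.5 times, both values are given. With and without these arrays the differences were -0.12 and -0.34 for Slc22a17, and 0.13 and 0.21 for Slc9a3r1. The description numbers have 4 leading stems among deficient and 2 among control arrays, with 0 in common, and a second number in each description is lower in every deficient than in every control array. If these numbers mark the order or place of processing, that and the group cannot be told apart.

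Mean levels of cell type markers also differed between the groups, but no marker passed an adjusted p under 0.05 in the limma fit. Of 10 tested club cell markers 9 were lower in deficient tumours, while Scgb1a1 differed by 0.06 (SE 0.11). The mean log2 level of the 10 was 8.88 to 10.2 in deficient and 10.2 to 12.8 in control arrays, without overlap. The widest differences were in Ltf (-6.51) and Muc5b (-3.51). Bpifb1 of that list missed the filter. All 4 tested ciliated cell markers were lower, with mean levels of 5.45 to 8.65 in deficient and 7.61 to 10.6 in control arrays, and Foxj1 missed the filter. Endothelial markers were lower for 9 of 10 (5.99 to 8.91 in deficient, 7.44 to 8.69 in control), with deficient 3 and 6 the lowest at 5.99 and 6.28. Deficient 3 and 6 were also the lowest arrays for ciliated cell markers (5.505 and 5.45) and type I alveolar markers (8.573 and 8.695). Type I alveolar markers were lower for 7 of 8 (8.57 to 10.7 in deficient, 10.2 to 11.1 in control), fibroblast markers for 8 of 9 (8.99 to 10.1 in deficient, 9.73 to 10.6 in control) and macrophage markers for 7 of 8 (8.27 to 9.85 in deficient, 8.68 to 10.2 in control). Type II alveolar markers were higher for 7 of 9 (12.3 to 12.97 in deficient, 12.6 to 12.8 in control), and lymphocyte markers were split at 2 and 2 of 4 (5.18 to 6.67 in deficient, 5.59 to 7.00 in control). Of the erythroid markers 0 passed the filter. Their part in the differences between groups was not tested, and in whole tumours fewer cells of a type and less RNA per cell cannot be told apart.

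The solute carriers as a group differed little between deficient and control tumours. The median log2 difference of the members, deficient minus control, was -0.03, beside 0.02 for all tested probesets, and 114 members lay within 0.5 of 0. Differences ran from -2.08 for the amino acid transporter Slc38a4 to 1.89 for Slc23a3. Higher means in deficient tumours were found for 64 members (46%) and lower ones for 75 (54%), against 52.6% and 47.4% of the 12701 tested probesets.

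No member passed the threshold of an adjusted p under 0.05. In the limma fit 0 of 139 members did so in either direction, against 5 probesets of all tested (0.0394%), 0.0157% higher and 0.0236% lower in deficient tumours. At an unadjusted p under 0.05 there were 25 members (18%, against 14.7% of all tested). Of these 8 were higher in deficient tumours (5.76%, against 8.09%) and 17 lower (12.2%, against 6.57%). A difference of at least 1 log2 unit was found for 1 member upward (0.719%, against 0.48%) and 7 downward (5.04%, against 2.54%). The groups did not overlap for 0 members upward (against 0.323%) and for 1 downward, Slc35e4 (0.719%, against 0.173%). These counts describe genes chosen with earlier results known. Without deficient 3 and 6, 2 members passed, beside 32 of the 12701 tested probesets. They were Slc25a29 (-1.65, adjusted p = 0.0306) and Slc35e4 (-0.69, adjusted p = 0.0462). Leaving out deficient 6 alone gave Slc25a29 (adjusted p = 0.0259), beside 30 of all tested probesets. Leaving out control 4 alone gave Slc35e4 (adjusted p = 0.0486), beside 85 of all tested. Slc25a29 met the level rule through the control arrays (above 4 in 7 of them and in 1 deficient array), so that its calls come from a gene whose selection favours a lower level in deficient tumours. With limma array weights, which ran from 0.277 for deficient 1 to 4.15 for control 5, 26 members and 1900 of all tested probesets passed. The 8 higher members became 13 when deficient 1 was left out, 4 when deficient 2 was and 5 when deficient 4 was. The shares over all tested probesets were not computed for these changes.

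**Figure D1:**
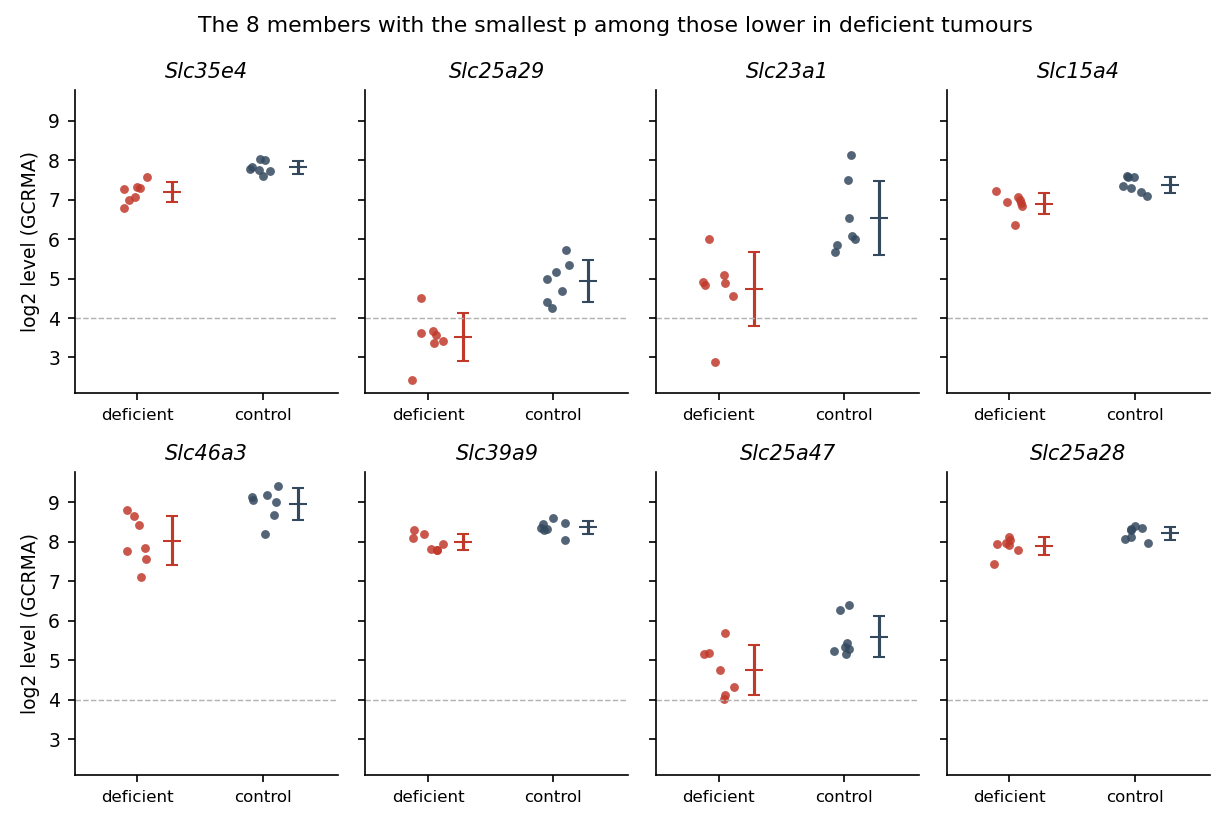
Log2 levels (GCRMA, vertical axes) of the members with the smallest p among those lower in deficient tumours (8 panels). Points are single tumours, 7 deficient at the left and 7 control at the right of each panel, bars are means ± SD, and the dashed line is the level of 4 used in the rule. The groups are separate for Slc35e4 (at most 7.56 in deficient, at least 7.60 in control) and overlap in the other panels.

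Slc35e4 was the member whose groups were separate. This gene belongs to the family of nucleotide sugar transporters, and its own substrate is not settled. Its levels ran from 6.78 over a median of 7.26 to 7.56 in deficient tumours and from 7.60 over 7.79 to 8.03 in control tumours. All 7 deficient tumours thus lay below every control, by a narrow margin at the border. The difference was -0.64 (SE 0.12, 95% interval -0.90 to -0.38), 1.55-fold lower in deficient tumours, with an adjusted p of 0.111. Its probeset is of a type that may bind other transcripts.

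In the fit to all arrays the differences of the other Slc35 genes were smaller. Of the 16 nucleotide sugar members 9 were higher and 7 lower in deficient tumours, with a median of 0.02. The highest-ranked of the others was Slc35a1, the CMP-sialic acid transporter needed to cap glycans with sialic acid. It had 6.18, 6.45 and 6.60 as lowest, median and highest level in deficient tumours and 5.87, 6.06 and 6.38 in control tumours. The difference of 0.29 (SE 0.11, adjusted p = 0.24) came with 4 deficient tumours above every control. In Slc35c1, the GDP-fucose transporter, deficient 3 and 6 were the 2 highest arrays of all, while 4 of the other deficient tumours lay below every control. Its difference was -0.30 (SE 0.33), and -0.77 (SE 0.21, adjusted p = 0.153) without deficient 3 and 6, where that of Slc35e4 was -0.69.

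Mitochondrial carriers made up the largest class, 26 members of 33 on the array. Of these 15 were higher and 11 lower in deficient tumours, with a median of 0.08. Slc25a29, a carrier of basic amino acids such as arginine and lysine, had levels of 2.44, 3.57 and 4.50 in deficient tumours and 4.25, 4.98 and 5.72 in control tumours (lowest, median, highest). Only deficient 6 reached above 4 and overlapped the controls, at 4.50. The difference was -1.43 (SE 0.28, adjusted p = 0.111), and with 6 of 7 deficient values near the background the size depends on the floor that GCRMA sets. Its neighbour Slc25a47, a carrier known mainly from liver, had 4.01, 4.75 and 5.68 in deficient tumours and 5.16, 5.34 and 6.40 in control tumours. There 4 deficient tumours lay below every control, and the difference was -0.84 (SE 0.29, adjusted p = 0.213).

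The mitoferrins, which bring iron into mitochondria for haem and iron-sulfur clusters, had differences of opposite sign. Slc25a28 (mitoferrin-2) had 7.43, 7.94 and 8.12 in deficient tumours and 7.97, 8.32 and 8.40 in control tumours, a difference of -0.33 (SE 0.12, adjusted p = 0.222). Slc25a37 (mitoferrin-1) had 7.999, 9.44 and 10.1 in deficient tumours and 7.86, 8.64 and 9.13 in control tumours, a difference of 0.65 (SE 0.34, adjusted p = 0.389), which was 0.33 (SE 0.33) without deficient 3 and 6. The upper end in Slc25a37 came from 4 deficient tumours, numbers 2, 3, 4 and 6, which exceeded every control. Neither difference passed the test, and the contrast between both genes was not tested. Slc25a13, the aspartate-glutamate carrier citrin, was 0.58 higher in deficient tumours (SE 0.23, adjusted p = 0.263), with 2 of 7 above every control. Slc25a46, an outer-membrane protein tied to mitochondrial shape, was 0.30 higher (SE 0.14, adjusted p = 0.33), with 5 of 7 above every control. Slc25a15, of the same family, was 0.25 higher (adjusted p = 0.384).

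Transporters of amino acids and neurotransmitters held 16 members that were lower in deficient tumours and 5 that were higher, with a median of -0.20. None of them passed the test. Without deficient 3 and 6 the class was less uneven, as more of its members turned from lower to higher than the reverse. Those turning higher included Slc1a3 (0.26, SE 0.58), Slc6a14 (0.62, SE 0.26) and Slc7a3 (0.05, SE 0.75). Slc1a4 (ASCT1), which takes up alanine, serine and cysteine, had 7.95, 9.48 and 9.97 in deficient tumours and 9.49, 10.01 and 10.8 in control tumours. Here 4 deficient tumours lay below every control, deficient 6 furthest, and the difference was -0.72 (SE 0.31, adjusted p = 0.304). Slc7a4, a relative of the cationic amino acid transporters, differed by -0.48 (SE 0.19, adjusted p = 0.261), and its other tested probeset gave -0.64. Both probesets had the same sign, but the member's probeset can detect several transcripts.

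Several amino acid carriers varied far more among deficient than among control tumours. Slc38a4 (SNAT4), a sodium-coupled transporter of neutral and cationic amino acids, had levels of 2.56, 5.52 and 9.29 in deficient tumours and 5.31, 8.11 and 8.63 in control tumours. Its lowest values were those of deficient 3 (2.56) and deficient 6 (2.85), while deficient 1 and 5 (8.88 and 9.29) exceeded every control. The difference was -2.08 (SE 0.99, adjusted p = 0.35), and -0.91 (SE 0.84) without deficient 3 and 6. With those arrays near the background, its size depends on the GCRMA floor. The other tested probeset of Slc38a4 gave -1.39 (SE 0.79). Slc43a3, a purine nucleobase transporter known from endothelial cells and counted here by its family number, had 6.43, 9.01 and 10.7 in deficient tumours and 9.02, 10.1 and 10.6 in control tumours. Its difference of -1.24 (SE 0.56, adjusted p = 0.33) was -0.48 (SE 0.39) without deficient 3 and 6. Endothelial, type I alveolar and ciliated cell markers were all lowest in these arrays, and their part was not tested.

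Carriers known for their part in growth of tumour cells showed no difference that this spread could resolve. Slc7a5 (LAT1), an importer of large amino acids reported as a HIF-2α target in kidney cancer cells, had 5.03, 6.09 and 7.07 in deficient tumours and 4.46, 5.83 and 6.56 in control tumours. The difference was 0.16 (SE 0.38, 95% interval -0.66 to 0.97). It was 0.50 (SE 0.38) without deficient 3 and 6 and -0.15 with array weights. Its partner Slc3a2 (CD98 heavy chain) differed by -0.20 (SE 0.20), the glutamine importer Slc1a5 (ASCT2) by -0.07 (SE 0.17) and the stress-responsive Slc38a2 (SNAT2) by 0.01 (SE 0.15), which was -0.03 after quantile normalisation. Without deficient 3 and 6 these were -0.02 (SE 0.20) for Slc3a2, -0.02 (SE 0.19) for Slc1a5 and 0.01 (SE 0.17) for Slc38a2. Slc6a14, an apical importer of neutral and cationic amino acids, differed by -0.12 (SE 0.49), and by 0.62 (SE 0.26, adjusted p = 0.318) without deficient 3 and 6. In those arrays it was at 6.05 and 5.97, while the other 5 deficient tumours lay between 8.15 and 8.93. The cystine importer Slc7a11 and Slc38a1 missed the filter.

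**Figure D2:**
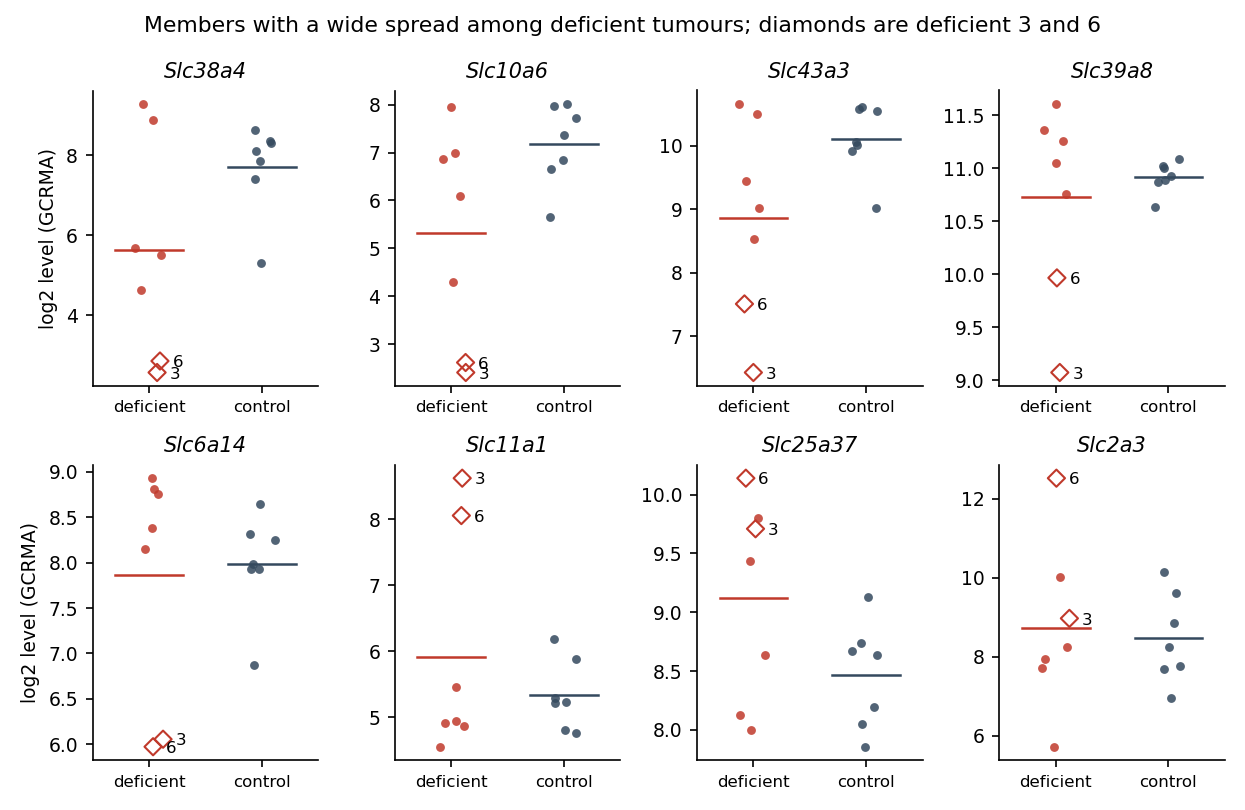
Log2 levels (GCRMA, vertical axes) of 8 members with a wide spread among deficient tumours, 7 deficient tumours at the left and 7 control tumours at the right of each panel. Open diamonds mark deficient 3 and 6 and lines are group means. In Slc11a1 the diamonds lie at 8.62 and 8.05, above all other tumours, and in Slc38a4 at 2.56 and 2.85, below them.

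Vitamin carriers held the largest upward difference among the members, in Slc23a3, and a downward one of similar size. Slc23a1 (SVCT1), the epithelial importer of ascorbate, had levels of 2.89, 4.88 and 6.01 in deficient tumours and 5.66, 6.08 and 8.14 in control tumours. Of the deficient tumours 6 lay below every control and only deficient 7, at 6.01, overlapped. The difference was -1.80 (SE 0.46, adjusted p = 0.132). Ascorbate is a cofactor of the hydroxylases that mark HIF subunits for destruction. Slc23a2 (SVCT2), the more widely used ascorbate importer, differed by -0.70 (SE 0.39, adjusted p = 0.426), with no deficient tumour outside the control range of 6.36 to 9.07. Slc23a3, the family member without known substrate, went the other way. It had 3.70, 6.25 and 7.34 in deficient tumours and 2.54, 3.54 and 5.67 in control tumours. The difference of 1.89 (SE 0.63, adjusted p = 0.204) came from 4 deficient tumours above every control, with 6 deficient and 2 control arrays above 4. It met the level rule mainly through deficient arrays, and with 5 of 7 controls not above 4 the size and rank of this difference depend on the GCRMA floor. Without deficient 3 and 6 it was 1.26 (SE 0.60, adjusted p = 0.377).

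Slc46a3, a lysosomal membrane transporter of the folate carrier family, had 7.11, 7.85 and 8.81 in deficient tumours and 8.20, 9.06 and 9.42 in control tumours. Of the deficient tumours 4 lay below every control, and the difference was -0.93 (SE 0.26, adjusted p = 0.153). Another lysosomal carrier, Slc15a4, exports histidine and small peptides and is known from immune cells. It had 6.36, 6.93 and 7.23 in deficient tumours and 7.09, 7.34 and 7.60 in control tumours, with 6 of 7 deficient tumours below every control. The difference was -0.48 (SE 0.13, adjusted p = 0.151). Its relative Slc15a3 differed by -0.80 (SE 0.40, adjusted p = 0.37), and the cell-surface peptide importer Slc15a2 (PEPT2), known from type II cells, by 0.06 (SE 0.18). Without deficient 3 and 6 the values were -0.52 (SE 0.42) for Slc15a3 and 0.12 (SE 0.20) for Slc15a2. Macrophage markers were lower for 7 of 8 in the same tumours, and their part in these differences was not tested.

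**Figure D3:**
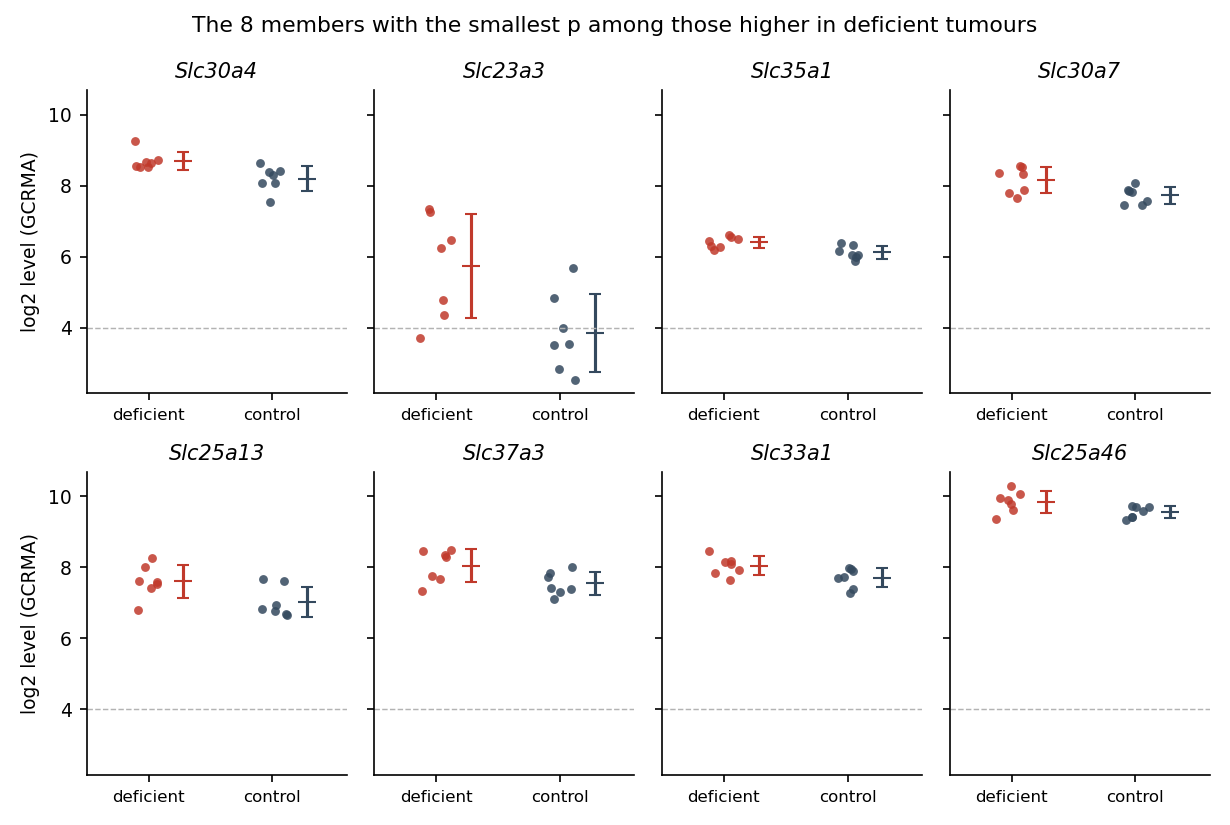
Log2 levels (GCRMA, vertical axes) of the members with the smallest p among those higher in deficient tumours. Points are single tumours, 7 deficient at the left and 7 control at the right of each panel, bars are means ± SD, and the dashed line is the level of 4. The groups overlap in every panel, with 4 of 7 deficient tumours above all controls for Slc30a4 and Slc23a3.

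Zinc carriers fall into importers of the cytosol (Slc39, ZIP) and exporters from it into vesicles or out of the cell (Slc30, ZnT). Of 15 members 7 were higher and 8 lower in deficient tumours, with a median of -0.05. By family, 4 of 5 Slc30 and 3 of 10 Slc39 members were higher, none passed the test, and the families were not compared by a test. The smallest p-values among the exporters belonged to Slc30a7 (ZnT7) and Slc30a4 (ZnT4), which load zinc into the Golgi and vesicles. Slc30a4 had 8.51, 8.64 and 9.26 in deficient tumours and 7.53, 8.31 and 8.62 in control tumours, a difference of 0.50 (SE 0.16, 95% interval 0.15 to 0.85, adjusted p = 0.197). Slc30a7 had 7.64, 8.31 and 8.56 in deficient tumours and 7.46, 7.83 and 8.08 in control tumours, a difference of 0.42 (SE 0.17, adjusted p = 0.262). In both genes 4 of 7 deficient tumours exceeded every control.

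Among the importers the smallest p-values belonged to Slc39a9 (ZIP9) and Slc39a4 (ZIP4). Slc39a9 had 7.80, 7.96 and 8.31 in deficient tumours and 8.05, 8.35 and 8.61 in control tumours, a difference of -0.37 (SE 0.11, adjusted p = 0.176). Slc39a4, the importer that takes up dietary zinc in the gut, differed by -0.38 (SE 0.17, adjusted p = 0.328). In each of these genes 4 deficient tumours lay below every control. Slc39a1 (ZIP1) differed by 0.18 (SE 0.09), and the exporter Slc30a6, which lies within 20 Mb of Epas1, by -0.14 (SE 0.18) and by 0.01 (SE 0.18) without deficient 3 and 6. Slc39a8 (ZIP8), a manganese and zinc importer abundant in lung, differed by -0.19 (SE 0.32) and by 0.29 (SE 0.14) without deficient 3 and 6, its lowest arrays at 9.07 and 9.97.

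Carriers of sodium, bicarbonate, chloride and sulfate held 9 members, 2 higher and 7 lower in deficient tumours, with a median of -0.23. Slc4a5 (NBCe2), an electrogenic sodium bicarbonate cotransporter, had 4.19, 7.31 and 8.73 in deficient tumours and 7.37, 8.59 and 8.80 in control tumours. Deficient 3 was lowest, 4 deficient tumours lay below every control, and the difference was -1.40 (SE 0.53, adjusted p = 0.247). Without deficient 3 and 6 it was -0.80 (SE 0.36, adjusted p = 0.346). Its relative Slc4a4 (NBCe1) differed by -0.26 (SE 0.34), and by -0.70 (SE 0.24, adjusted p = 0.246) without these arrays. The difference of the chloride-anion exchanger Slc26a4 (pendrin) was -0.60 (SE 0.91), and 0.27 (SE 0.87) without deficient 3 and 6. The tested ciliated and most tested club cell markers were lower in the same tumours, and their part was not tested.

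Among sugar carriers 4 of 6 members were higher in deficient tumours and 2 lower. Slc45a3 differed by 0.55 (adjusted p = 0.489), and its other tested probeset by 0.57 (adjusted p = 0.493). Slc5a1 (SGLT1), which couples glucose uptake to sodium, had 2.37, 4.40 and 5.51 in deficient tumours and 4.78, 5.16 and 6.85 in control tumours. Of the deficient tumours 5 lay below every control and 3 were not above 4. The difference was -1.13 (SE 0.44, adjusted p = 0.258). Slc2a3 (GLUT3), a high-affinity glucose transporter known to respond to hypoxia, differed by 0.26 with a wide error (SE 0.83). It had 5.72, 8.26 and 12.5 in deficient tumours and 6.95, 8.24 and 10.2 in control tumours, the 12.5 being deficient 6, and the difference was -0.37 without that tumour and -0.54 (SE 0.68) without deficient 3 and 6. Slc2a10, a transporter of the same family, was above 4 in 3 deficient arrays, numbers 2, 3 and 6, and in 5 control arrays. Its difference was 0.08 (SE 0.65), and -0.66 (SE 0.56) without deficient 3 and 6.

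Carriers of acids, lipids and organic ions included Slc16a7 (MCT2), a high-affinity carrier of pyruvate and lactate. It had 6.21, 7.53 and 8.23 in deficient tumours and 7.54, 8.46 and 9 in control tumours, a difference of -0.94 (SE 0.35, adjusted p = 0.238). Slc10a6 (SOAT), which imports sulfated steroids, had 2.41, 6.09 and 7.95 in deficient tumours and 5.66, 7.36 and 8.01 in control tumours. Deficient 3 and 6, at 2.41 and 2.62, were lowest, and the difference was -1.86 (SE 0.82, adjusted p = 0.315), or -0.74 (SE 0.57) without them. With those arrays near the background, the size of the Slc10a6 difference depends on the GCRMA floor. The carnitine importer Slc22a5 (OCTN2) differed by -0.51 (SE 0.23, adjusted p = 0.325), and Slc33a1, which brings acetyl-CoA into the endoplasmic reticulum, by 0.34 (SE 0.14, adjusted p = 0.302). Of the phosphate carriers 5 of 6 were higher, led by the sugar-phosphate carrier relative Slc37a3 (0.50, SE 0.20, adjusted p = 0.281) and the glucose-6-phosphate transporter Slc37a4 (0.30, SE 0.17). Slc34a2, the sodium phosphate cotransporter of type II cells, averaged 12.74 ± 0.24 in deficient and 12.58 ± 0.05 in control tumours (SD, n = 7 each), a difference of 0.16 (SE 0.11, adjusted p = 0.515), or 0.25 (SE 0.10, adjusted p = 0.301) without deficient 3 and 6.

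Of the metal carriers outside zinc, Slc11a1 (NRAMP1), a phagosomal metal transporter of macrophages and neutrophils, stood out by its spread. It was at 8.62 and 8.05 in deficient 3 and 6, between 4.55 and 5.46 in the other deficient tumours and between 4.76 and 6.18 in control tumours. The difference of 0.58 (SE 0.61) was -0.39 (SE 0.25) without these arrays. Mean macrophage marker levels in the same arrays were 8.27 and 9.32, inside the range of 8.32 to 9.85 of the other deficient tumours for deficient 6 and just under it for deficient 3. The magnesium carriers Slc41a1 and Slc41a2 differed by 0.25 (SE 0.13) and -0.53 (SE 0.32), the second by -0.29 (SE 0.32) without deficient 3 and 6.

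**Figure D4:**
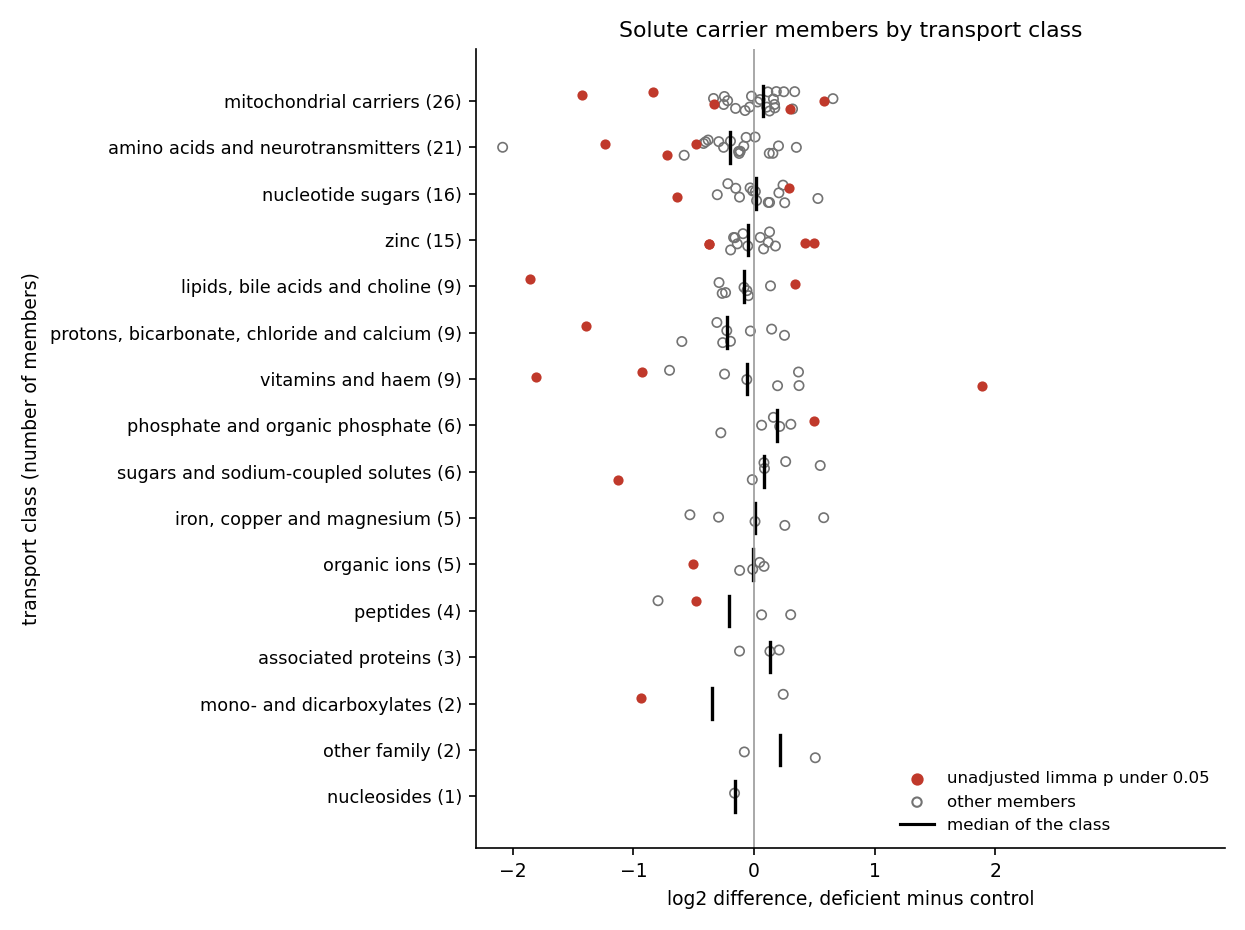
Log2 difference, deficient minus control (horizontal axis), of each of the 139 members, grouped by transport class (rows). Points are genes, filled where the unadjusted limma p is under 0.05, and vertical ticks are class medians. These medians run from -0.35 to 0.21, and the classes at both ends have 2 members each. Points of most classes lie on both sides of 0.

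The spread within a group was wider among deficient tumours for 95 of the 139 members. The median SD of a member was 0.41 in deficient and 0.31 in control tumours, beside 0.36 and 0.28 for all tested probesets. The widest were Slc38a4 (SD 2.65 in deficient, 1.13 in control), Slc10a6 (2.22 in deficient, 0.85 in control), Slc2a3 (2.12 in deficient, 1.14 in control) and Slc26a4 (2.101 in deficient, 1.61 in control). Other members in which deficient 3 and 6 lay outside all other arrays, named after their values were seen, were the glutamate transporter Slc1a3 (both lower), the folate and thiamine importers Slc19a1 and Slc19a2 and the sulfate transporter Slc26a2 (both higher). With and without these arrays the differences were -0.58 (SE 0.70) and 0.26 (SE 0.58) for Slc1a3, 0.37 (SE 0.25) and 0.09 (SE 0.17) for Slc19a1, 0.37 (SE 0.20) and 0.11 (SE 0.15) for Slc19a2, and 0.25 (SE 0.17) and 0.03 (SE 0.13) for Slc26a2. A second probeset was available for 38 members. Of their 55 other tested probesets 38 had the same sign. For Slc38a10, a member of the amino acid family, the member's probeset differed by -0.13, and the others by -0.36 (adjusted p = 0.132) and -0.46 (adjusted p = 0.126). For Slc66a2 the member's probeset differed by 0.51 (adjusted p = 0.36), and the other by 0.58 (adjusted p = 0.265).

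**Figure D5:**
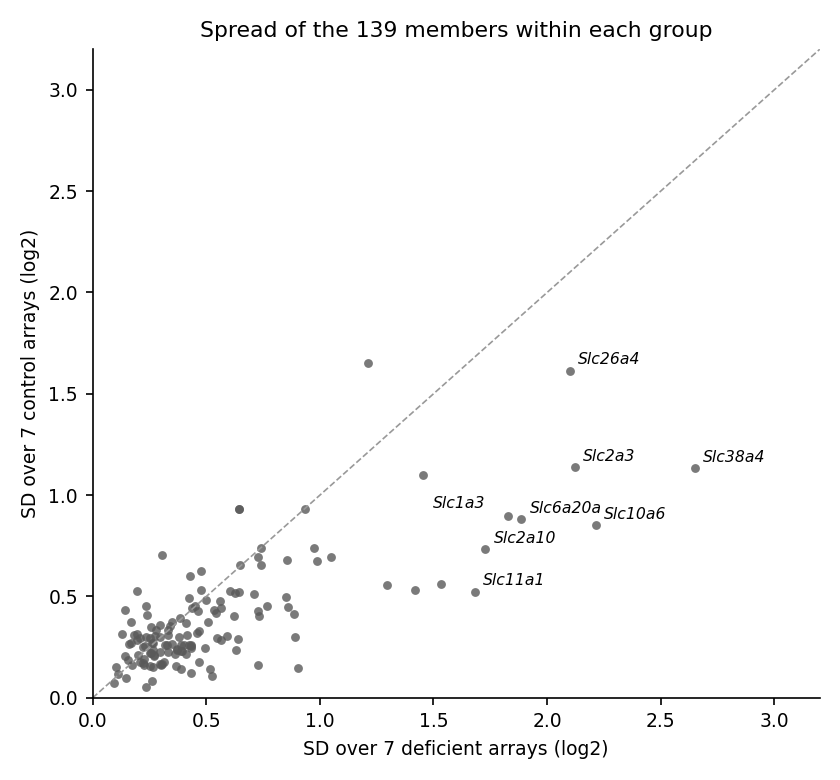
Standard deviation over the 7 deficient arrays (horizontal axis, log2 units) against that over the 7 control arrays (vertical axis, log2 units) of the 139 members, each point a gene, with the line of equality dashed. More points lie below the line (95 members with a wider spread in deficient tumours), and Slc38a4 has the widest at 2.65 in deficient and 1.13 in control tumours.

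Lists of genes that work with these carriers were read in the same fit, and their medians were not compared by a test with that of the members. Of 16 tested genes for the sodium pump, which maintains the gradient that many carriers use, and for its partners, 4 were higher and 12 lower in deficient tumours (median -0.38), and 0 passed the test. The ubiquitin ligase Nedd4l had a mean of 8.98 ± 0.29 in deficient and 9.41 ± 0.34 in control tumours, a difference of -0.44 (SE 0.17, adjusted p = 0.254). Fxyd5, a modulator of the pump, differed by -0.53 (SE 0.21, adjusted p = 0.276). Of 18 genes of the amino acid response 9 were higher and 9 lower (median -0.04). The transcription factor Cebpb averaged 8.26 ± 0.31 in deficient and 9.10 ± 0.45 in control tumours (difference -0.85, SE 0.20, adjusted p = 0.126), and the serine synthesis enzyme Psat1 averaged 9.85 ± 0.38 in deficient and 9.20 ± 0.63 in control tumours (difference 0.65, SE 0.26, adjusted p = 0.271). Of 20 tested ABC transporters, which pump their cargo with ATP, 6 were higher and 14 lower (median -0.19). Among these the peroxisomal Abcd2 differed by -1.22 (SE 0.42, adjusted p = 0.216) and the porphyrin-linked Abcb6 by -0.36 (SE 0.16, adjusted p = 0.33). The organic anion transporters Slco3a1 and Slco2a1 differed by -1.22 (SE 0.73) and 0.14 (SE 0.22).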

How the data were processed

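Total RNA from 14 tumours, 7 deficient and 7 control, was measured on Affymetrix arrays, per the labels. GCRMA, named in the submitters' processing notes, gave the deposited log2 levels of each probeset (not given in the sources used here are its version and the genome build). The number of arrays limits the precision. Of 22690 probesets, 20380 had 1 gene in the platform annotation, 691 several and 1555 none. The 12701 non-control probesets above 4 in at least 7 of 14 arrays were fitted with limma 3.58.1 in R 4.3.3 (lmFit with 1 group term, eBayes, two-sided), adjusted by Benjamini-Hochberg over all of them. The limma fit was tested on simulated data, with independent normal values and the same spread in both groups. The wider spread among deficient arrays and any correlation between arrays were not simulated. Differences are deficient minus control. Nothing says that tumours came from separate litters or days, so p-values measure the spread between these arrays only.

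Genes named were the 12 members with the smallest p in each direction, the 2 smallest in each transport class of at least 3 members, members within 20 Mb of Epas1, a list of carriers known in lung or hypoxia, and the 2 smallest in each partner list. Slc43a3, Slc38a4, Slc38a10, Slc39a4 and Slc23a2 fall outside parts of it and were added after their values were seen, as were Slc1a3, Slc2a10, Slc19a1, Slc19a2, Slc35c1 and Slc7a3. Members and lists were chosen with earlier results of these data known. The classes follow family numbers. Slc4a1ap, Slc9a3r1 and Slc9a3r2 encode associated proteins, not carriers, and stayed members by the rule. Alternatives covered the filter, normalisation between arrays, variance model, array weights, arrays left out, replicate numbers and description numbers.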

Additional observations from a re-analysis of the deposited data

Results flagged for a closer look

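In 15 of the 122 groups examined (61 named members, each in deficient and control tumours), 1 array lay far from the other 6 of its group by Dixon's criterion. Chance alone marks about 1 group in 20 where values are normal and independent and genes are chosen without regard to them. The flagged Slc19a1, Slc2a10, Slc35c1 and Slc38a4 were named after their values were seen, so that rate is no fair measure for this set. The 15 flags were 1 in deficient 1, 1 in deficient 3, 6 in control 4, 4 in control 6, 2 in control 3 and 1 in control 1.

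In deficient 1 the vesicular zinc exporter Slc30a4 was at 9.255, against 8.509 to 8.721 in the other deficient tumours. In deficient 3 the folate importer Slc19a1 was at 6.848, against 4.969 to 5.617 in the others. In control 4 the magnesium carrier Slc41a2 (6.481, others 7.775 to 8.543) and the lipocalin receptor Slc22a17 (5.315, others 6.303 to 6.979) were low. In the same array the bicarbonate cotransporter Slc4a4 (6.482, others 5.186 to 5.604), the amino acid transporter subunit Slc3a1 (7.335, others 5.911 to 6.118) the glucose transporter relative Slc2a10 (5.933, others 3.789 to 4.205) and Slc7a4 (7.783, others 6.654 to 7.087) were high. Control 6 had the lowest value by this criterion for the amino acid transporter Slc38a2 (10.018, others 10.553 to 10.925), the zinc importer Slc39a1 (10.149, others 10.455 to 10.591), the fucose carrier Slc35c1 (5.743, others 6.433 to 6.589) and kanadaptin, Slc4a1ap (6.276, others 6.902 to 7.126). In control 3 the amino acid transporters Slc38a4 (5.307, others 7.405 to 8.635) and Slc6a14 (6.874, others 7.931 to 8.641) were low. In control 1 the glucose transporter Slc5a1 was at 6.852, against 4.784 to 5.555 in the other controls.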

How the results depend on the processing

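The count of 5 called probesets was 0 without a filter on low values, 9 with a variance trend and robust moderation, 1900 with array weights and 32 without deficient 3 and 6. The count of 0 called members was 26 with array weights, 2 without deficient 3 and 6 and 0 under the other settings. The weights ran from 0.277 for deficient 1 to 4.15 for control 5. With description number stems as a random block (correlation 0.349), 0 probesets were called, and the members at an unadjusted p under 0.05 were 2 higher and 7 lower, against 8 and 17. With array weights these were 19 and 34. Members with groups apart downward numbered 3 without deficient 3 and 6, against 1, where fewer deficient arrays had to lie apart. Leaving out 1 array at a time gave 0 to 85 called probesets, 0 to 1 called members, 4 to 13 higher and 12 to 19 lower members, and a member median of -0.07 to -0.004. For the unadjusted and non-overlap counts, shares over all tested probesets were not computed in these settings. Those counts are thus no result about the members. The cause of these changes was not tested.

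Same-numbered arrays did not deviate together (correlations of -0.23 to 0.22 over 7 pairs, and 0 of 7 correlated best with their own number). The levels thus showed no sign of pairing by number. This cannot exclude a pairing, since tumours of paired mice need not deviate together. With the replicate number as a block 2 probesets were called.

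Of 615 values of 61 named members outside the left-out arrays, 574 kept direction and side of the threshold, 26 passed it and 15 turned sign. Many of these values could not turn sign. The changed filters, the variance trend, the replicate block and a permutation test of the arrays keep the same difference of means. Under these settings only the side of the threshold could change. Slc38a2 was -0.032 after quantile normalisation, -0.021 with array weights and -0.028 with the stem block. Slc30a6 was 0.0095 with weights and 0.014 without deficient 3 and 6, and Slc7a5 was -0.15 with weights. Without deficient 3 and 6, Slc11a1 was -0.39, Slc26a4 0.27, Slc2a3 -0.54, Slc39a8 0.29, Slc6a14 0.62, Slc1a3 0.26, Slc2a10 -0.66 and Slc7a3 0.054. The other probeset of Slc9a3r1 gave -0.057. Of 854 values with 1 array left out 20 turned sign and 2 passed. The ranges were -0.095 to 0.081 for Slc38a2, -0.063 to 0.31 for Slc7a5, -0.020 to 0.18 for Slc15a2, -0.17 to 0.047 for Slc1a5, -0.34 to 0.081 for Slc39a8, -0.31 to 0.19 for Slc6a14, -0.28 to 0.39 for Slc2a10 and -0.37 to 0.76 for Slc2a3.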

Other observations

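Slc27a2, a very long-chain acyl-CoA synthetase of peroxisomes that also serves fatty acid uptake, missed the level filter and is no member. It was above 4 in 0 of 7 deficient and 5 of 7 control tumours, with levels of 2.15 to 3.82 in deficient and 3.65 to 6.52 in control tumours. It was named after its values were seen and was not tested. Slc16a11, a carrier of the monocarboxylate family, also missed it, with 1 deficient and 4 control tumours above 4 (3.11 to 4.38 in deficient, 3.62 to 4.69 in control). Slc3a1, the other member within 20 Mb of Epas1, differed by 0.20.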
